A study of Mus musculus with 7 samples.

Results

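The miR-297, miR-466, miR-467 and miR-669 microRNAs of the mouse form a rodent repeat family, and its members were all entries of the deposited count table whose name starts with mmu-miR-297, mmu-miR-466, mmu-miR-467 or mmu-miR-669 followed by a letter or a hyphen. Of 1915 mature miRNA entries, 80 were members: 6 of miR-297, 31 of miR-466, 13 of miR-467 and 30 of miR-669. Small RNA was sequenced from the colorectum of wild-type female C57BL/6 mice, whose age the labels give as 7 weeks, in 2 groups of 3 animals. The 3 mice with colorectal cancer (CRC; M4, M5 and M6) had been injected with azoxymethane (AOM), a colon carcinogen, at 10 mg/kg. From 5 days later they drank 2.5% dextran sodium sulfate (DSS), a chemical that causes colitis, for 7 days and then water for 14 days. The labels say that this was repeated 3 times and also place the CRC mice at stage T1, day 17. How these statements fit together, and with the age of 7 weeks, was not established. The 3 healthy mice (M1, M2 and M3) had received 0.9% NaCl. No group had AOM or DSS alone, so their effects cannot be told apart. The labels name no batch, and M1, which has 2 labelled libraries, has 1 column in the table.

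A miRNA is cut from a hairpin, whose 5p and 3p arms can each give a mature strand, and it finds messenger RNAs mainly through its seed, bases 2 to 8. Most hairpins of this family lie in tandem in an intron of Sfmbt2, a Polycomb group gene that is imprinted and expressed from the paternal copy, and the cluster is known for its expression in placenta and embryonic stem cells. Many of the mature strands resemble simple TG or CA repeats.

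The 71 distinct sequences of the 80 entries were closely related. All 33 entries named 5p held more T and G, and all 35 named 3p held more C and A, while 12 had no arm in the name. The hexamers TGTGTG or ACACAC, read on the given strand, occurred in 61 members (76.25%), against 5.12% of all 1915 entries. Median GC content was 36.4% in the members (22.7% to 57.9%) and 52.2% in all entries. The members carried 42 different seeds. The sequences of the 12 most abundant entries and of those with the 4 highest and 4 lowest fold changes at a mean of at least 5 CPM (a unit explained below) follow as DNA letters from the deposited table, 5′ to 3′, with the seed in capitals. RefSeq's table of mouse miRNAs held 8 of the 80 members, and all 8 sequences were the same.

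The first set shows the seed CATAACA, which had the most reads of any seed in the family (10408 over the 6 mice), in entries of miR-669.
miR-669a-3p: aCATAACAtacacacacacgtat
miR-669o-3p: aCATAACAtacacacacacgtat

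The second set shows 3 of the 5 miR-467 5p strands, each with a different seed.
miR-467a-5p: tAAGTGCCtgcatgtatatgcg
miR-467c-5p: tAAGTGCGtgcatgtatatgtg
miR-467e-5p: aTAAGTGTgagcatgtatatgt

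The third set holds the other CA-rich strands. The seed ATACATA is shared by miR-297a-3p, miR-297c-3p and miR-466d-3p, 3 of the 8 entries that carry it.
miR-297a-3p: tATACATAcacacatacccata
miR-297c-3p: tATACATAcacacatacccata
miR-466d-3p: tATACATAcacgcacacatag
miR-466b-3p: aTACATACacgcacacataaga
miR-466f-3p: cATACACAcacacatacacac
miR-467a-3p: cATATACAtacacacacctaca

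The fourth set holds the other TG-rich strands. The seed GTGTGTG is shared by miR-466i-5p, an uninterrupted TG repeat, and miR-466k, and TGTATGT by miR-297a-5p and miR-297c-5p.
miR-669a-5p: aGTTGTGTgtgcatgttcatgtct
miR-669m-5p: tGTGTGCAtgtgcatgtgtgtat
miR-297a-5p: aTGTATGTgtgcatgtgcatgt
miR-297c-5p: aTGTATGTgtgcatgtacatgt
miR-466i-5p: tGTGTGTGtgtgtgtgtgtg
miR-466k: tGTGTGTGtacatgtacatgtga

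The last set shows miR-669j, the member that differed most between the groups, above miR-669i, the other entry with its seed.
miR-669j: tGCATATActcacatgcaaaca
miR-669i: tGCATATAcacacatgcatac

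The entries name 82 hairpins, of which 81 were found by name in the GENCODE M21 annotation of GRCm38. Within Sfmbt2, which spans chr2:10370510-10595253, lay 71 of them, all in introns and none touching an exon, between positions 10466663 and 10518279. The other 10 lay elsewhere. By the hairpins named for each mature entry, 69 members came from the Sfmbt2 cluster, 10 from other places and 1, miR-297a-5p, from both. No other entry of the table had a hairpin inside Sfmbt2.

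Near-identical strands limit how far 1 entry can be read on its own. In 7 sets, 16 members had exactly the sequence of another member, and 35 of the 71 sequences were shared over bases 2 to 18 with another. In 6 of the 7 sets the reads were divided between the entries in the ratio of their named hairpins, within 1.17 percentage points over the 6 mice together. In single mice the division varied more, as for miR-297a-3p, which held 43.1% to 58.1% of its sequence's reads against 50% of the hairpins. The sequence printed for miR-669a-3p, for example, was counted as 91.4% miR-669a-3p and 8.60% miR-669o-3p, where the first names 91.7% of the hairpins. The 3 entries of the sequence of miR-466b-3p held 65.8% (miR-466b-3p), 25.3% (miR-466c-3p) and 8.92% (miR-466p-3p) of its reads, against 66.7%, 25% and 8.33% of the hairpins. In the seventh set, miR-669m-5p held 94.0% of the reads and 66.7% of the hairpins, and miR-466m-5p had the rest. Entries of 1 sequence are therefore not independent measurements, and sums over the family add every entry, since each held a portion of the reads.

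**Figure D1:**
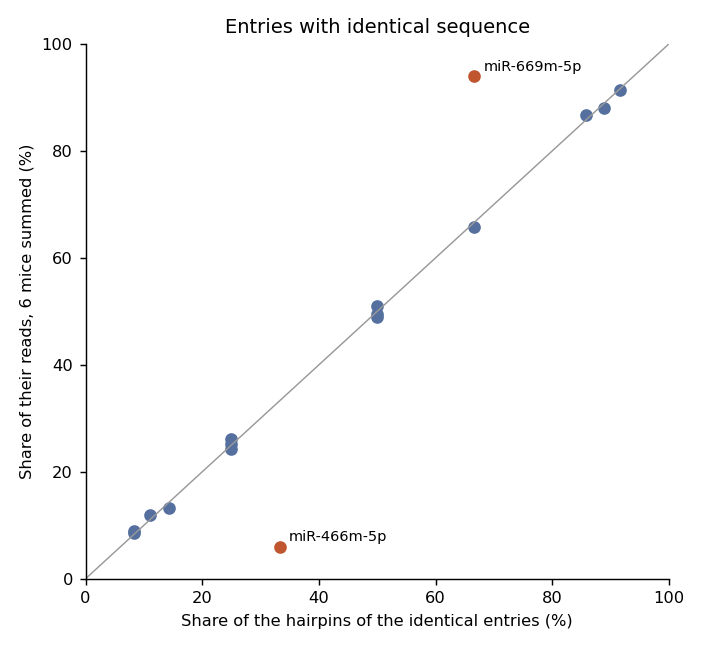
Each point is 1 of the 16 entries that share their sequence with another, with the share of the set's named hairpins (%, x axis) against its share of the set's reads over the 6 mice (%, y axis). Points of 6 sets lie within 1.17 percentage points of the line of equality, and miR-669m-5p (94.0% of reads, 66.7% of hairpins) and miR-466m-5p lie away from it.

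Total miRNA counts per mouse ranged from 3206127 to 15280434, and all 3 healthy mice had more reads than any CRC mouse. Members took 0.0824%, 0.0636% and 0.0717% of the reads in M1 to M3 and 0.0491%, 0.0924% and 0.0925% in M4 to M6. The shares of the groups overlapped, with the lowest and both of the highest in CRC mice. These fractions rest on 2967 to 10234 reads per mouse. In each mouse 73 to 79 of the 80 entries had a read, and the 12 most abundant entries gave 54.8% to 71.1% of the family.

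Levels are given below as CPM, counts scaled to a common library size, with the library sizes adjusted by TMM, edgeR's method that sets the bulk of the miRNAs level between mice. On that scale the family summed to 1145, 1094 and 649 CPM in M1 to M3 and 518, 596 and 631 CPM in M4 to M6. The means were 963 ± 273 (SD, n = 3) in healthy and 582 ± 58.1 (SD, n = 3) in CRC mice, a log2 ratio of -0.73. M1 and M2 stood well above the rest, while M3 was just above the highest CRC mouse. Scaled by total counts alone, the log2 ratio of the sums was 0.11, so its direction rests on the scaling. The median log2 fold change of all 878 miRNAs tested was -0.03 with TMM and 0.62 with total counts, and that of the 61 members tested was -0.66 and 0.08, below the median of all on both scales.

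**Figure D2:**
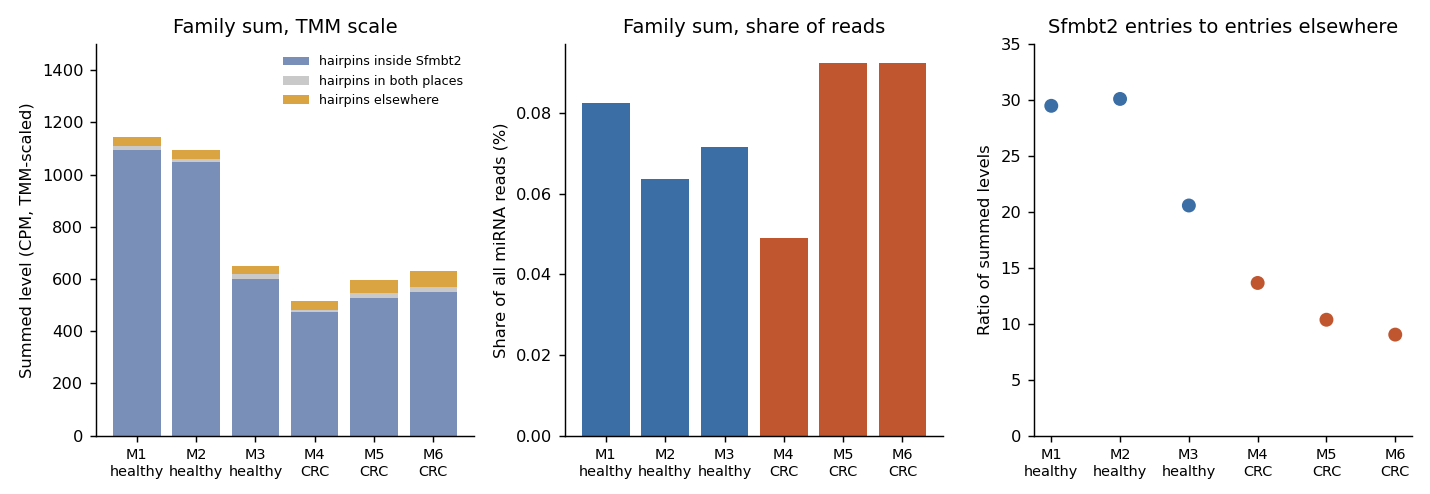
For each mouse, the family's summed level by hairpin location (left, TMM-scaled CPM), its share of all miRNA reads (middle, %) and the ratio of Sfmbt2 entries to entries elsewhere (right), with 1 bar or point per mouse and blue for healthy and red for CRC in the middle and right panels. M1 and M2 (1145 and 1094 CPM) lie above the other 4 mice on the left, the groups overlap in the middle, and on the right the healthy mice (20.6 to 30.1) lie above the CRC mice (9.03 to 13.6).

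By subfamily, miR-669 made up 46.3% of the mean family level, miR-467 24.4%, miR-466 23.6% and miR-297 5.74%. The log2 ratio of CRC to healthy sums was -0.86 for miR-669, -0.71 for miR-467, -0.53 for miR-466 and -0.59 for miR-297. The miR-467 sums were 250.8, 248.9 and 203.1 CPM in M1 to M3 and 146.9, 138.5 and 142.9 CPM in M4 to M6, and the groups did not overlap. Of the tested entries, negative log2 fold changes were found for 17 of 22 in miR-669, 8 of 10 in miR-467, 18 of 23 in miR-466 and 3 of 6 in miR-297 on the TMM scale. With total counts alone the median log2 fold change of each subfamily was positive, at 0.05, 0.10, 0.15 and 0.16 in the same order. These sums and counts carry no test.

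Of 6 lists of cell type markers, those of smooth muscle and nerve did not overlap between the groups and the other 4 did. The 8 smooth muscle miRNAs listed took 41.6%, 48.0% and 21.1% of all reads in M1 to M3 and 20.7%, 7.08% and 6.56% in M4 to M6. The 9 markers of intestinal epithelium took 12.4% to 14.3% in healthy and 13.7% to 17.7% in CRC mice. The 6 blood and immune markers took 0.201% to 1.75% in healthy and 0.796% to 1.34% in CRC mice, the 2 endothelial ones 0.787% to 1.33% and 1.20% to 1.97%, the 3 fibroblast ones 0.590% to 0.666% and 0.592% to 0.967%, and the 3 nerve ones 0.0437% to 0.0564% and 0.0222% to 0.0281%. No listed marker was at 0 in all 6 mice. The part of the tissue's makeup in the family's levels was not tested, and in whole tissue fewer cells of a type and less RNA per cell cannot be told apart.

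The test of single entries asked which members differed between CRC and healthy mice. It was edgeR's quasi-likelihood test over all miRNAs that passed a filter on low counts, with p-values adjusted for all of them. Of the 80 members 61 passed the filter and 19 did not, and an entry could pass through 1 group alone: all 6 mice reached the filter's level for 41 of the 61, all healthy but not all CRC mice for 8, the reverse for 7, and neither group in full for 5. The 19 that did not pass had mean levels of at most 1.19 CPM. One member, miR-669j, was called higher (1 of 61), where 2.28% of all 878 miRNAs were, and 0 members were called lower, where 0% were. At an unadjusted p under 0.05, 3 members were higher, against 13.6% of all miRNAs, and 9 were lower (14.8%), against 9.68%. With total counts alone 0 were lower and 5 higher at that level, so the lower ones rest on the TMM scale. Entries of 1 sequence also count more than once in these numbers. With identical sequences summed on the TMM scale, 5 of 54 members were lower and 3 higher at that level. With near-identical sequences summed, 4 of 41 were lower and 3 higher. As shares, these lower counts were close to the 9.68% of all miRNAs that were lower in the main fit. The shares of all miRNAs at this level were not counted with sequences summed or with total counts alone. DESeq2 called 3 members lower (miR-297a-3p, miR-297c-3p and miR-467c-5p; 4.92%), where 4% of all miRNAs were, and limma-voom 0, where 0% were. For 46 of the 61 the log2 fold change was negative on the TMM scale (75.4%), against 51.5% of all tested, and for 27 with total counts alone. On the TMM scale all CRC mice lay below all healthy mice for 19 members (31.1%), against 12.4% of all miRNAs. They lay above them for 2 (3.28%), against 14.1%. The 19 include miR-297a-3p, miR-297b-3p and miR-297c-3p, which have 1 sequence.

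**Figure D3:**
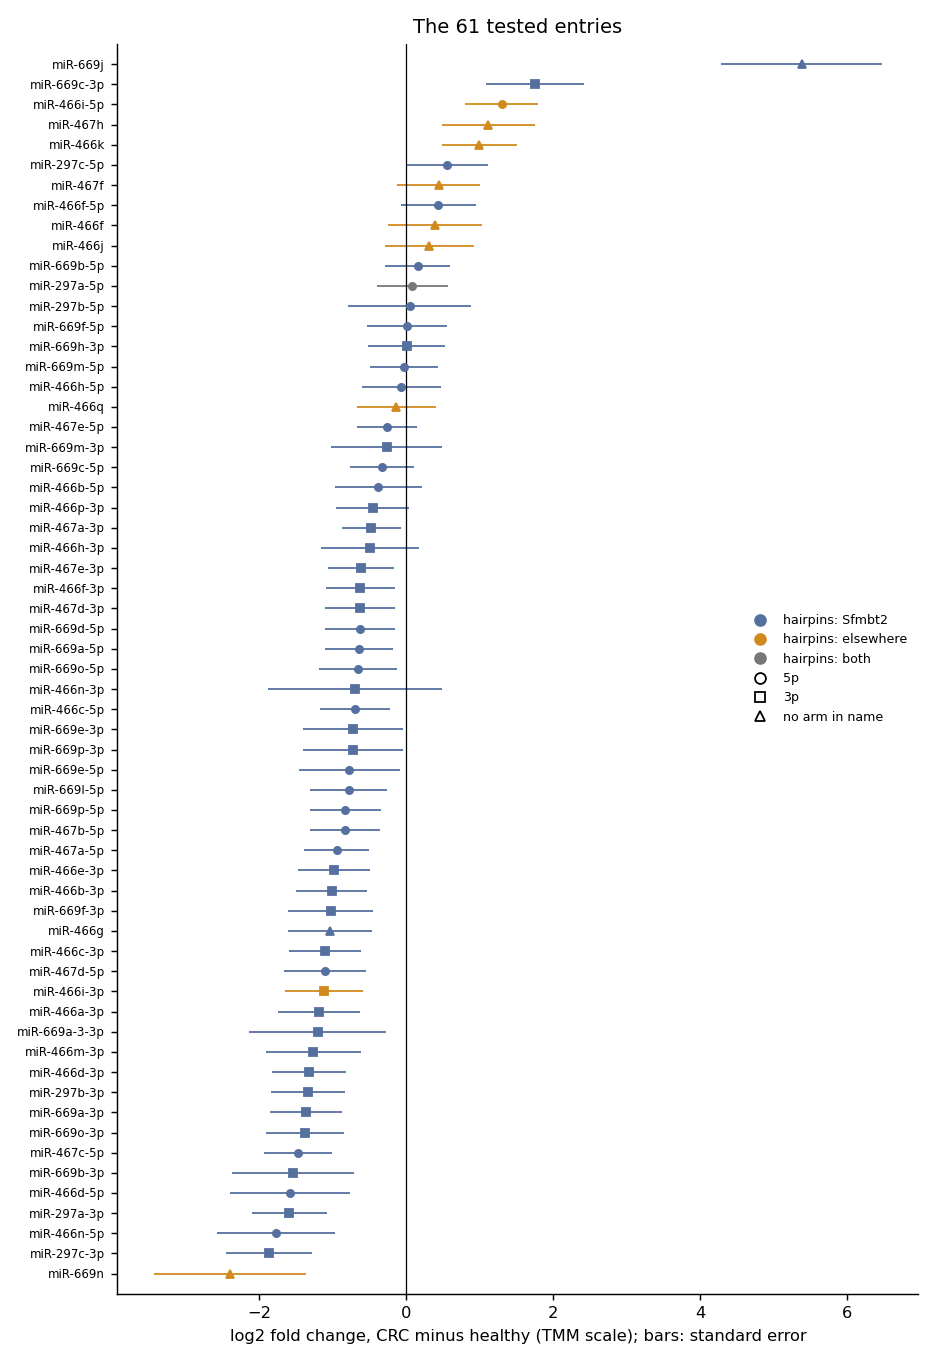
Log2 fold change of CRC against healthy mice on the TMM scale (x axis) with its standard error for the 61 tested members, ordered by fold change, with colour for hairpin location and symbol for arm. On this scale 46 of 61 lie below 0 (27 with total counts alone), and miR-669j (5.38) lies far to the right of the others.

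The most abundant member, miR-669a-3p, had 385, 346 and 120 CPM in M1 to M3 and 110, 108 and 114 CPM in M4 to M6. The CRC mice were close together and below every healthy mouse, but M3 was close to the highest of them. Its log2 fold change was -1.36 (SE 0.49) with an edgeR adjusted p of 0.135, so it was not called. Without M3 the adjusted p was 0.0423, and without any other mouse it ran from 0.107 to 0.479. With total counts alone the log2 fold change was -0.48 (edgeR adjusted p = 0.564). The other strand of these hairpins, miR-669a-5p, had 48.9, 43.8 and 27.99 CPM in healthy and 25.9, 35.7 and 15.7 CPM in CRC mice, and these ranges overlapped (-0.64 on the log2 scale, adjusted p = 0.429 in edgeR). The entry miR-669o-3p, which holds reads of the sequence of miR-669a-3p, gave -1.38, and miR-669p-5p, which has that of miR-669a-5p, gave -0.83.

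The leading miR-467 strand was miR-467a-5p, with 126, 128 and 64.5 CPM in M1 to M3 and 67.8, 43.3 and 54.0 CPM in M4 to M6. M3 lay below M4, so the groups overlapped (log2 fold change -0.95, SE 0.44, edgeR adjusted p = 0.231). The opposite strand, miR-467a-3p, had 32.2, 40.7 and 32.3 CPM in healthy and 19.8, 29.0 and 27.0 CPM in CRC mice without overlap, at a log2 fold change of -0.47. In miR-467c-5p the healthy mice had 23.4, 15.2 and 23.9 CPM and the CRC mice 7.51, 5.98 and 8.93. All 3 CRC mice lay below the lowest healthy mouse, and M3 here was the highest of all. The log2 fold change was -1.48 (SE 0.46) with an adjusted p of 0.103 in edgeR and 0.0258 in DESeq2. By contrast miR-467e-5p, with 33.1, 25.1 and 43.4 CPM against 28.6, 29.7 and 26.4 CPM, overlapped between the groups (-0.26), and its other strand miR-467e-3p gave -0.62. The 3p strand of miR-467c was not tested and ranged from 0.771 to 1.69 CPM.

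**Figure D4:**
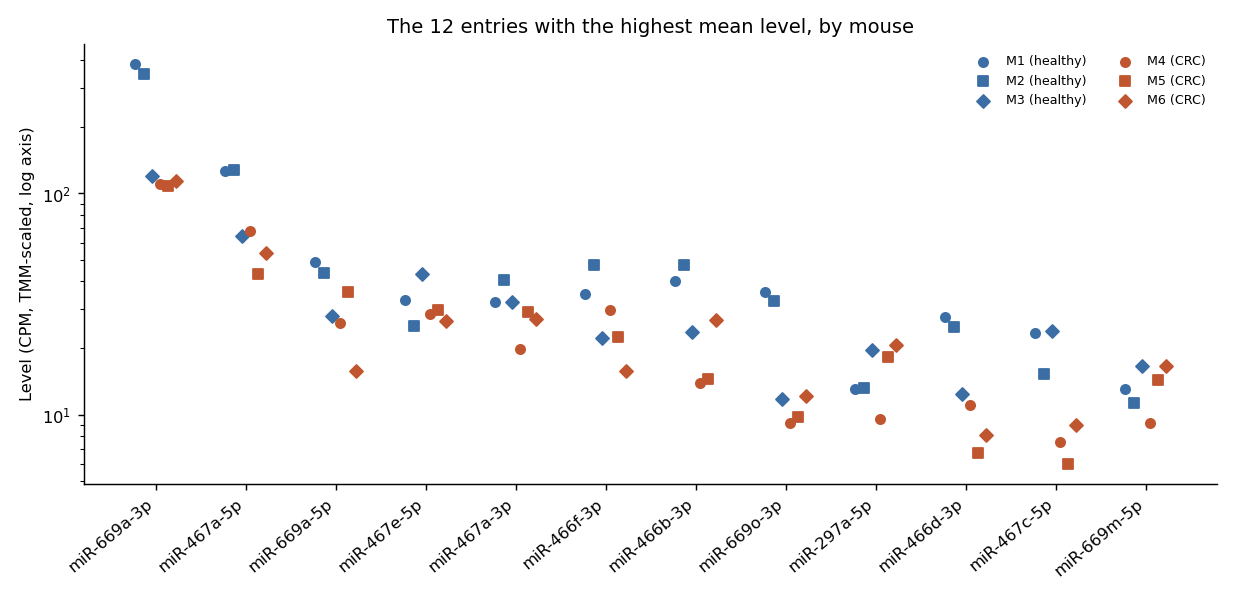
Levels of the 12 most abundant members in each mouse (TMM-scaled CPM, log axis), healthy and CRC mice in different colours. For miR-669a-3p M1 and M2 (385 and 346 CPM) stand apart from the other 4 mice (108 to 120 CPM), and for miR-467c-5p the 3 healthy mice lie above the 3 CRC mice.

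Among the miR-466 3p strands, miR-466b-3p had 40.4, 47.6 and 23.6 CPM in healthy and 13.9, 14.5 and 26.8 CPM in CRC mice (log2 fold change -1.02). M6 lay above M3, so these groups overlapped. The 2 entries that share its sequence gave -1.11 (miR-466c-3p) and -0.46 (miR-466p-3p). The values of miR-466d-3p were 27.5, 25.0 and 12.3 CPM against 11.03, 6.70 and 8.08 CPM, with every CRC mouse below every healthy one (log2 fold change -1.33, edgeR adjusted p = 0.152). Its 5p strand, miR-466d-5p, gave -1.58 at levels of at most 3.13 CPM. In miR-466f-3p the groups overlapped at 35.1, 47.7 and 22.1 CPM against 29.7, 22.5 and 15.7 CPM (-0.63), and its 5p strand gave 0.44. The 5p strand of the miR-466b hairpins, miR-466b-5p, gave -0.38.

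The lowest log2 fold changes among members with a mean of at least 5 CPM were those of miR-297c-3p and miR-297a-3p, which have 1 sequence. Healthy mice had 16.4, 21.5 and 9.14 CPM of miR-297a-3p and CRC mice 5.75, 4.53 and 5.32 CPM. The entry miR-297c-3p had 9.40, 12.7 and 3.64 CPM in healthy and 1.76, 2.72 and 2.55 CPM in CRC mice. In both, every CRC mouse was below every healthy mouse. The log2 fold changes were -1.59 (SE 0.51, edgeR adjusted p = 0.111) and -1.87 (SE 0.58, edgeR adjusted p = 0.103), and DESeq2's adjusted p for miR-297a-3p was 0.0318. The 5p strands stood apart from them: miR-297a-5p had 13.0, 13.2 and 19.5 CPM against 9.59, 18.3 and 20.6 CPM, and its log2 fold change was 0.09, while miR-297c-5p gave 0.56. A further abundant TG-rich strand, miR-669m-5p, had 13.1, 11.3 and 16.5 CPM against 9.11, 14.3 and 16.6 CPM, a log2 fold change of -0.03, and its 3p strand gave -0.26. For miR-669o-5p the value was -0.66. The entry miR-466m-5p was not tested and had at most 1.91 CPM.

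The member called higher, miR-669j, comes from a hairpin at chr2:10477910-10478030, on the plus strand in an intron of Sfmbt2. It had 8, 4 and 4 reads in M1 to M3 and 10, 184 and 197 reads in M4 to M6. These correspond to 0.895, 0.450 and 0.441 CPM in healthy and 1.60, 33.3 and 41.9 CPM in CRC mice, so M5 and M6 were high and M4 was near the healthy mice. The group means were 0.595 ± 0.260 and 25.6 ± 21.2 CPM (SD, n = 3 each), and the log2 fold change was 5.38 (SE 1.10, edgeR adjusted p = 0.0451). It passed the filter through the CRC mice alone, since all 3 of them and 0 healthy mice reached its level, so an entry such as this had to differ to be tested. The call was lost without M1 (adjusted p = 0.0997), M2 (0.0651), M3 (0.0564), M5 (0.135) or M6 (0.124) and in limma-voom (0.145), and M4 is the 1 mouse without which it stood. The entry with the same seed, miR-669i, had 5, 1, 0, 3, 0 and 1 reads in M1 to M6. The whole sequence of miR-669j stands in 10 GENCODE miRNA genes, all inside Sfmbt2, while the table names 1 hairpin for it. Another CA-rich strand from Sfmbt2 that was low in healthy mice was miR-669c-3p. It had 2.57, 0.900 and 0.881 CPM in M1 to M3 and 2.08, 5.79 and 7.02 CPM in M4 to M6. Here M4 lay inside the healthy range, and for miR-669j it lay just above it. The log2 fold change of miR-669c-3p was 1.75 (SE 0.66, edgeR adjusted p = 0.152). This strand was named after its values were seen.

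**Figure D5:**
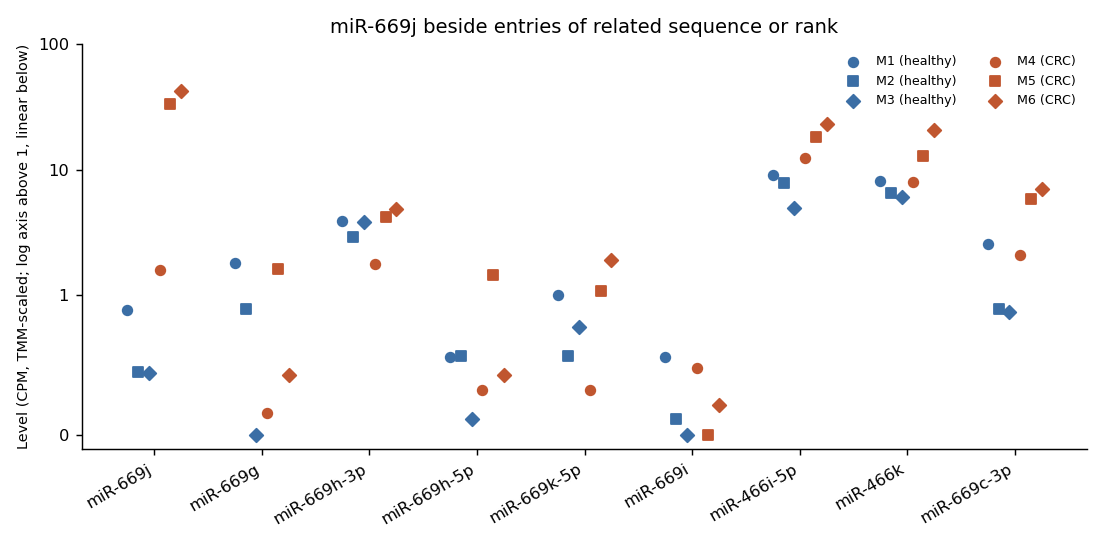
Levels of miR-669j and of 8 members of related sequence or high fold change, chosen after their values were seen, in each mouse (TMM-scaled CPM, y axis linear near 0 and logarithmic above), healthy and CRC mice in different colours. M5 and M6 (33.3 and 41.9 CPM of miR-669j) stand far above the other 4 mice (0.441 to 1.60 CPM), and of the entries drawn beside it none exceeded 23.2 CPM in a mouse.

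By hairpin location the groups differed in the makeup of the family. The Sfmbt2 entries summed to 1095, 1046 and 601 CPM in M1 to M3 and 473, 527 and 549 CPM in M4 to M6. The 10 entries from elsewhere summed to 37.1, 34.8 and 29.2 CPM in healthy and 34.7, 50.9 and 60.8 CPM in CRC mice. Location here follows the named hairpins, and reads of some of these entries could also come from Sfmbt2. The sequence of miR-466f stands in 4 GENCODE miRNA genes, 3 of them inside Sfmbt2. That of miR-466j differs from miR-669m-5p, an Sfmbt2 entry, in its last base. These entries had at most 3.26 (miR-466f) and 3.44 CPM (miR-466j) in a mouse. Larger entries from elsewhere also resemble Sfmbt2 entries. Most of the sequence of miR-466k, from its first base, stands in miR-466b-5p, and miR-466k reached 20.6 CPM in M6. The sequences of miR-467f, miR-467h and miR-669n closely resemble those of miR-467a-3p, miR-467e-5p and miR-669c-5p. How many such reads the sum from elsewhere holds was not tested. The ratio of the first sum to the second, which does not depend on the scaling of a library, was 29.5, 30.1 and 20.6 in M1 to M3 and 13.6, 10.4 and 9.03 in M4 to M6. All healthy mice lay above all CRC mice in this ratio. Without miR-466i-5p in the second sum the ratio was 39.0, 38.7 and 24.8 in healthy and 21.2, 16.2 and 14.6 in CRC mice. The groups again did not overlap in the ratio. The second sum itself, which still held miR-466k, overlapped between them. It was then 28.1, 27.0 and 24.2 CPM in healthy and 22.4, 32.6 and 37.6 CPM in CRC mice. Of 51 tested entries from Sfmbt2, 43 had a negative log2 fold change (median -0.73), and of 9 tested from elsewhere 6 had a positive one (median 0.39). With total counts alone these medians were 0.04 and 1.16. No test was made of these sums or counts.

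The pure TG repeat miR-466i-5p, from a hairpin at chr13:17747473-17747593, had 9.06, 7.76 and 4.96 CPM in healthy and 12.3, 18.3 and 23.2 CPM in CRC mice. Every CRC mouse was above every healthy mouse, and the log2 fold change was 1.30 (SE 0.49, edgeR adjusted p = 0.152). Without M4 its adjusted p was 0.0343, and without any other mouse it ran from 0.187 to 0.425. Its sequence stands in 61 GENCODE miRNA genes, none of them inside Sfmbt2. The hairpin's 3p strand, miR-466i-3p, had 4.70, 7.31 and 4.19 CPM in healthy and 3.68, 2.17 and 1.49 CPM in CRC mice. Every CRC mouse was below every healthy mouse in this strand (log2 fold change -1.12, edgeR adjusted p = 0.233), which was named after its values were seen. The other entry from elsewhere with a high fold change, miR-466k, had 8.17, 6.53 and 6.06 CPM against 7.99, 12.9 and 20.6 CPM, with M4 inside the healthy range (log2 fold change 0.99, edgeR adjusted p = 0.271). A further entry from elsewhere went the other way: miR-669n, named after its values were seen, had 37, 29 and 17 reads in healthy and 10, 0 and 0 reads in CRC mice, with a log2 fold change of -2.40 (edgeR adjusted p = 0.200). It entered the test through the 3 healthy mice, where it was high, and M4. GENCODE places the hairpin of 1 of these 10 entries, miR-466q, in an intron of Tnik, and the others lie within no annotated coding or long noncoding gene of their strand.

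Strand use was compared as the log2 ratio of 5p to 3p counts under 1 hairpin name, a measure free of library scaling, by limma over the 236 hairpin names with a mean of at least 10 counts in both arms. Of 21 in the family, 0 were called, where 0.424% of all 236 were. At an unadjusted p under 0.05, 3 were higher in CRC (miR-466i, miR-297c and miR-297a), against 8.05% of all, and 1 was lower (miR-669c), against 4.66%. The difference was positive for 15 of the 21 with a median of 0.50, where 47.9% of all were positive with a median of -0.08. The 21 names are not separate measurements, since miR-297a, miR-297b and miR-297c share a 3p sequence. The same holds for miR-466b and miR-466c and for miR-669a and miR-669o, and miR-669a and miR-669p share a 5p sequence. For miR-466i the log2 ratio was 0.94, 0.09 and 0.24 in M1 to M3 and 1.72, 3.02 and 3.87 in M4 to M6, a difference of 2.45 (SE 0.71, limma adjusted p = 0.160). Those of miR-297c were -0.41, -1.64 and -0.14 in healthy and 1.36, 0.93 and 2.12 in CRC mice. In both the groups did not overlap. For all 3 names that were higher the arms do not stand for the same hairpins: miR-297a-5p names 4 hairpins and miR-297a-3p 2, miR-297c-3p has part of the reads of a sequence shared with miR-297a-3p and miR-297b-3p, and the sequence of miR-466i-5p stands in 61 GENCODE miRNA genes and that of miR-466i-3p in 1.

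Summed over the family, 3p strands had 684, 680 and 299 CPM in healthy and 248, 248 and 281 CPM in CRC mice, and 5p strands 414, 371 and 324 CPM against 242, 275 and 263 CPM. The ratio of 3p to 5p was 1.65 and 1.83 in M1 and M2, 0.923 in M3 and 1.02, 0.903 and 1.07 in M4 to M6. M3 thus lay within the range of the CRC mice and away from the other healthy animals. Of 27 tested 3p entries 25 had negative log2 fold changes (median -1.02), and of 25 tested 5p entries 18 had (median -0.63), where total counts alone gave medians of -0.17 and 0.17.

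Over the 61 tested members, the log2 CPM of M1 and M2 correlated at r = 0.97, of M1 and M4 at 0.90, of M3 and M4 at 0.89, of M4 and M5 at 0.83 and of M5 and M6 at 0.81, and the lowest was that of M2 and M6 at 0.64. These correlations are across entries that share sequences, and entries are not replicates. M4 was below M3 for 44 members and above it for 17. Without M3 and M4, which leaves 2 mice a group, edgeR called 25 of 65 members lower (38.5%) and 3 higher (4.62%), where 27.4% and 25.8% of all miRNAs tested were called.

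GC content also moved with the fold change: across all 878 tested miRNAs, which are not independent replicates, Pearson's r was 0.35, and the members are GC-poor. Over the 61 tested members alone it was 0.12, and 0.21 without miR-669j. Spearman's rho, which uses ranks, was 0.23 over these 61 and 0.30 over all 878. With each mouse's GC trend removed, the median log2 fold change of the members was -0.49, against -0.08 for all, and miR-669j was called (edgeR adjusted p = 0.0431).

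The 37 other entries of the table that hold TGTGTG or ACACAC served for comparison. Of the 17 tested, 9 had negative and 8 positive log2 fold changes, with a median of -0.03, and 0 were called. The largest differences among them were positive, in miR-7051-3p (log2 fold change 3.47, edgeR adjusted p = 0.0557) and miR-9768-3p (2.48, edgeR adjusted p = 0.0622). The TG-repeat strand miR-574-5p, like these named after its values were seen, had 293, 293 and 97.1 CPM in healthy and 114, 71.9 and 77.2 CPM in CRC mice (log2 fold change -1.37), with M3 inside the range of the CRC mice.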

How the data were processed

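The deposited table holds unnormalized read counts for 1915 mature entries, with the hairpin names and sequence of each, per the file headers. Libraries were read on an Ion Proton, per the labels' protocols, and aligned with BWA to mm10 (GRCm38), per the submitters' processing notes. The handling of reads that match several hairpins, or either strand, was not stated there. Mice are separate animals, per the labels, and 0 sample columns were left unused.

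The test of single entries used edgeR 4.0.16 under R 4.3.3 (TMM factors, filterByExpr by group, glmQLFit with robust=TRUE, glmQLFTest, two-sided, Benjamini-Hochberg over 878 miRNAs, threshold 0.05), and arm ratios with limma 3.58.1 (0.5 added to counts). DESeq2 1.42.0 and limma-voom were alternatives. Scripts were tested on simulated data. Sums add every entry, in place of each distinct sequence once as planned, because identical sequences divide their reads; the largest entry per sequence was an alternative. Named members were those called, the 12 most abundant, the top of each subfamily, the 4 highest and 4 lowest fold changes at a mean of at least 5 CPM, other arms and identical entries of the abundant ones. Members and lists were chosen with earlier results of these data known. Any other miRNA named, and the set described apart among identical sequences, was chosen after its values were seen. The other alternatives were RLE and total-count scaling, no filter, leaving out each mouse or M3 with M4, neighbouring profiles as blocks, identical or near-identical sequences summed, and GC trends removed.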

Additional observations from a re-analysis of the deposited data

How the results depend on the processing

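With 3 mice a group and an edgeR coefficient of biological variation of 0.511, small differences could not be called, and 3 counts correspond to 0.331 to 0.638 CPM. No paired analysis was possible because the labels give no pairing; the blocks used (M1 and M2; M3 and M4; M5 and M6) come from the profiles, and since the first and last hold 1 group each, the blocked value is M4 against M3 alone, 1 mouse each. The median log2 fold change of the tested members was 0.077 with total counts alone, and the family sum's log2 ratio was 0.11 there, -1.15 without M3 and M4 and -0.33 for M4 against M3. Members called lower numbered 3 in DESeq2, 25 without M3 and M4 and 0 to 4 without 1 mouse (4 without M3, 1 without M4), where 4%, 27.4%, 3.18% and 5.64% of all miRNAs were called in DESeq2, without M3 and M4, without M3 and without M4. Members called higher numbered 0 in limma-voom and with blocks, 3 without M3 and M4 and 0 to 3 without 1 mouse (3 without M4, 0 without any other), where 25.8% of all were called without M3 and M4 and 14.3% without M4. Hairpins called for their arm ratio numbered 4 of 21 without M3 and M4 (36% of all) and 0 to 1 without 1 mouse (1 of 22 without M4, 4.55% of all). The log2 fold change of miR-669j ran from 1.82 (M4 against M3, adjusted p = 0.241) to 6.33. Of 432 alternative values of 27 named members, 379 kept direction and call, 7 lost a call, 22 gained one and 24 changed sign; the cause was not tested. With total counts alone the signs changed for miR-669a-5p (0.17), miR-467e-5p (0.37), miR-467a-3p (0.32), miR-466f-3p (0.15), miR-669m-5p (0.69), miR-466b-5p (0.53), miR-467e-3p (0.068), miR-466p-3p (0.38) and miR-669m-3p (0.52). For M4 against M3 alone (blocks) they changed for miR-467a-5p (0.072), miR-466f-3p (0.42) and miR-297a-5p (-1.02). For miR-669m-5p the value was 0.065 without M3 and M4, 0.053 with identical and 0.19 with near-identical sequences summed, and 0.14 with the GC trend removed; for miR-466b-5p it was 0.39 with near-identical sequences summed. Leaving out 1 mouse gave -0.16 to 0.44 for miR-297a-5p, -1.08 to 0.22 for miR-669m-3p, -0.24 to 0.27 for miR-669m-5p and -1.06 to 0.092 for miR-466b-5p.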
